A study of Mus musculus with 6 samples.

Results

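A set of 1112 anti-PanQk crosslink peaks was strong both in the Quaking pull-down and, at the same place, in the control pull-down from C2C12 myoblasts. They were chosen by their read numbers. Each held 10 or more reads in the anti-PanQk list, lay outside the mitochondrial chromosome and shared at least 1 nt on the same strand with a control peak of 10 or more reads. These peaks are called members, and the 943 control peaks they touched are called partners. The members were 1112 of 21752 nuclear anti-PanQk intervals (5.11%), and the partners were 943 of 8051 nuclear control intervals (11.7%). Because the rule used the reads of both lists, read numbers and their ratios are given as a description, and nothing is tested on them. An interval listed under several gene IDs was counted once.

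C2C12 is an immortalised mouse muscle precursor line, and all libraries came from cells irradiated with ultraviolet light at 400 mJ. The anti-PanQk list came from 1 library of myoblasts pulled down with an antibody to the Quaking proteins as a family. The control list came from 1 myoblast library pulled down with an antibody to HA, a viral peptide used as a tag. The anti-PanQk libraries of myotubes differentiated for 72 h (2 libraries) and the myoblast libraries of anti-Qk6 and anti-Qk7 (1 each) were not analysed here. Neither list has a replicate, the depth of the libraries is unknown, and each interval quoted covers counting error only. Intervals of shares and medians take peaks as independent, which peaks of the same locus are not, so they are too narrow.

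Quaking proteins are RNA-binding proteins of the STAR family. They bind RNA through a KH-type domain and act in alternative splicing, circular RNA formation, transcript stability and translation, and in muscle they take part in the splicing program of myogenic differentiation. In iCLIP, ultraviolet light joins protein to the RNA it touches, and the reverse transcriptase that stops at the joined residue marks the contact to within a few nucleotides. A pull-down with an antibody to an unrelated tag carries the RNA that is recovered without the protein of interest, often from abundant transcripts and short stable RNAs.

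The members fell into 671 separate sites, a site being all members and partners joined through shared nucleotides. A site spanned 59 nt in the median and between 3 and 337 nt. Most were simple, with 494 sites holding 1 member and 417 holding exactly 1 member and 1 partner. At the other end, 34 sites held 5 or more members, and the most complex held 21 members. Members carried 480 gene IDs and partners 483, of which 474 were shared. In 75 sites the same place was listed under 2 or more gene IDs, so a site cannot always be given to 1 gene.

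At the minimum of 10 reads, strong anti-PanQk peaks were more often paired than strong control peaks. Both shares come from the same overlaps, so they depend on how many strong peaks each list holds. The order was the reverse among peaks of 27 to 50 and of 51 to 100 reads, as given below. Of 3522 strong nuclear anti-PanQk peaks, 31.6% (95% Clopper-Pearson interval 30.0 to 33.1) were members. Another 15.3% touched control peaks below the minimum, and 53.2% (51.5 to 54.8) touched no control peak. Of 5682 strong nuclear control peaks, 16.6% (15.6 to 17.6) were partners, 8.50% touched anti-PanQk peaks below the minimum, and 74.9% touched none. Members held 62504 of 183581 nuclear anti-PanQk reads (34.0%), and partners held 48131 of 144365 nuclear control reads (33.3%). All strong peaks together held 59.2% of nuclear anti-PanQk reads and 91.7% of nuclear control reads. Since the rule asks for 10 or more reads, these shares of reads are set in part by it.

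Pairing went with read number in both lists. Among anti-PanQk peaks of 10 to 26 reads, 23.9% of 2685 were members, against 11.2% of 5169 control peaks of that size that were partners. At 27 to 50 reads the shares were 46.7% of 486 anti-PanQk peaks and 59.8% of 306 control peaks. The shares were 57.0% of 242 and 85.3% of 102 at 51 to 100 reads. Over 100 reads nearly all peaks were shared, with 95.4% of 109 anti-PanQk peaks (89.6 to 98.5) and 91.4% of 105 control peaks (84.4 to 96.0). Of 125 sites with 100 or more reads in a list, 63 had a site of like read numbers on another chromosome, as described below. Their peaks are counted here as separate. The 5 anti-PanQk peaks over 100 reads that touched no control peak reached at most 123 reads. Transcript levels were not measured here, and their part in this was not tested.

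**Figure D1:**
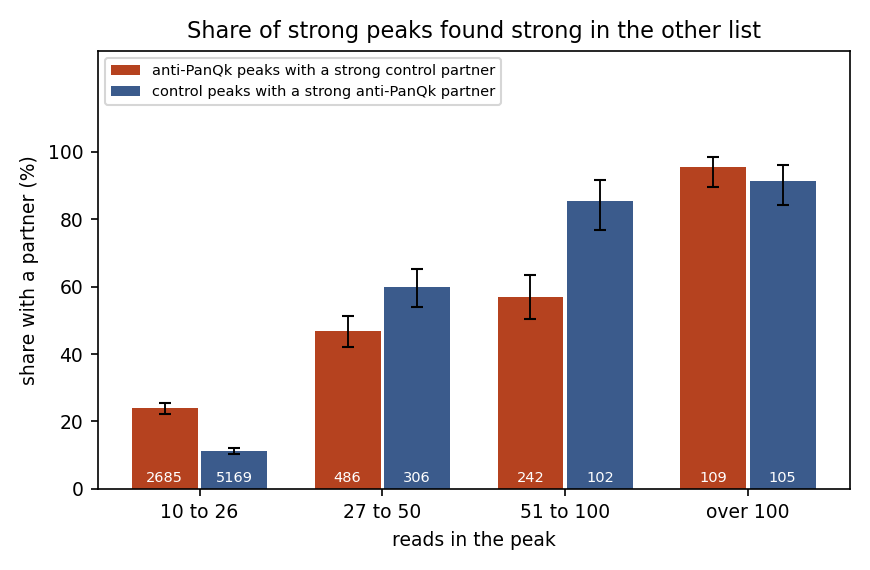
Share of strong nuclear peaks that had a strong peak of the other list at the same place (vertical axis, %), by reads in the peak (horizontal axis), for anti-PanQk peaks (red, left bars) and control peaks (blue, right bars). Error bars are 95% Clopper-Pearson intervals and white numbers are peaks per class. The share reaches 95.4% of anti-PanQk peaks and 91.4% of control peaks over 100 reads.

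Read numbers spread widely on both sides. Members held between 10 and 1317 reads with a median of 22 (quartiles 14 and 44), and partners between 10 and 951 reads with a median of 21 (quartiles 15 and 39). When each member was set against its strongest partner, 516 members had more reads, 559 had fewer and 37 had as many. The median log2 ratio of anti-PanQk over control reads was -0.07 (95% interval -0.16 to 0), and the 10th and 90th percentiles were -1.52 and 1.65. The list totals themselves stand 1.27 to 1 (log2 0.35). At 2-fold or more stood 221 members (19.9%), where all 2890 nuclear anti-PanQk intervals touching any control peak gave 26.3%. At 0.5 times or less stood 236 members (21.2%), where those 2890 gave 34%. The minimum of 10 reads on both sides narrows the possible ratios of weak peaks, so nothing is read from these differences.

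Individual places departed far from equality in either direction. A ratio of 8-fold or more was seen in 23 members, and 31 stood at 1/8 or less. The reads of member and strongest partner had a Spearman correlation of 0.35 and a Pearson correlation of 0.47 on the log2 scale, over 1112 members that often share a partner. The ratio went with the member's own reads, as its numerator must. The median log2 ratio was -0.40 at 10 to 26 member reads, 0.43 at 27 to 50, 1.11 at 51 to 100 and 1.26 over 100. Over 100 reads, 62 members stood at 2-fold or more and 3 at 0.5 times or less.

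**Figure D2:**
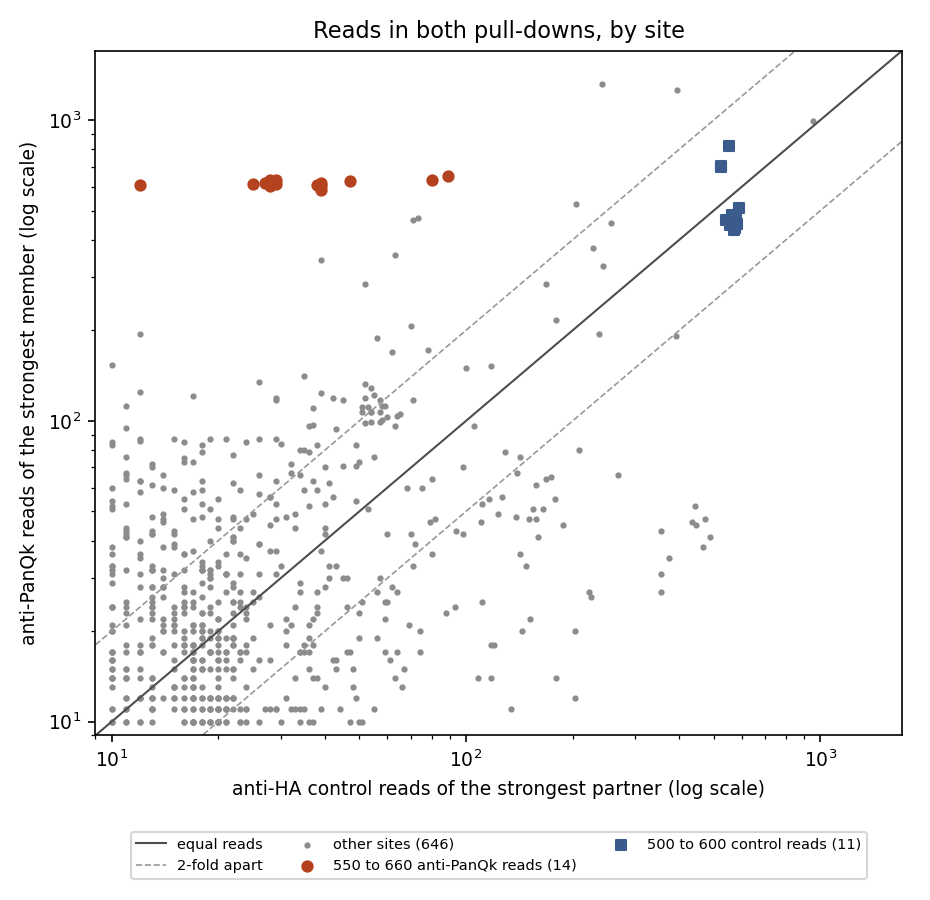
Reads of the strongest anti-PanQk member (vertical axis, log scale) against reads of the strongest control partner (horizontal axis, log scale) in each of the 671 sites. The solid line marks equal reads and the dashed lines a 2-fold difference. The 14 sites of 550 to 660 anti-PanQk reads (red circles) form a row with 12 to 89 control reads, and the 11 sites of 500 to 600 control reads (blue squares) lie near the line of equal reads.

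The site with the most anti-PanQk reads lay on chromosome 10, plus strand, at 24613784 to 24613793 (mm9, as all positions here). It held 1317 anti-PanQk reads (exact Poisson 95% interval 1247 to 1390) and 242 control reads (212 to 274). Its gene ID spans 100 nt from the first to the last listed peak, a stretch called its locus. The next site, on chromosome 9, minus strand, at 56071527 to 56071645, held 1257 anti-PanQk reads in its strongest member (1188 to 1328) and 393 control reads in its strongest partner (355 to 434). It was composite, with 6 members and 9 partners.

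The third to the sixth site held large numbers of reads in both lists. On chromosome 3, plus strand, at 96178017 to 96178020, the same 4-nt interval was called in both lists, with 991 anti-PanQk reads (930 to 1055) and 951 control reads (892 to 1013). On chromosome 1, plus strand, 72301660 to 72301722 held 821 anti-PanQk reads (766 to 879) and 554 control reads (509 to 602). On chromosome 11 a plus-strand site at 101519644 to 101519674 held 703 anti-PanQk reads (652 to 757) and 526 control reads (482 to 573). A minus-strand site at 101507141 to 101507152 held 697 anti-PanQk reads (646 to 751) and 526 control reads (482 to 573). Each of the last 3 places has a locus of 49 nt, although the chromosome 1 place is also listed under a locus of 18198 nt.

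The remaining 4 of the 10 sites with the most anti-PanQk reads were far stronger in the anti-PanQk list. The site on chromosome 6, plus strand, at 47731686 to 47731719 held 651 anti-PanQk and 89 control reads. On the X chromosome, plus strand, 54045765 to 54045829 held 633 anti-PanQk and 80 control reads. On chromosome 10, minus strand, 79166310 to 79166336 held 631 anti-PanQk and 29 control reads. On chromosome 3, minus strand, 52526653 to 52526678 held 630 anti-PanQk and 28 control reads. The X chromosome place lies in a locus of 61493 nt, and the other places lie in loci of 34 to 41 nt.

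The highest ratios belonged to members of about 600 reads on several chromosomes. A 5-nt member on chromosome 6, minus strand, at 95050298 to 95050302 held 609 anti-PanQk reads over 12 control reads, a 50.8-fold ratio (log2 5.67). The stretches marked as centres in the 2 peaks, explained below, lay 32.5 nt apart. The member at 97728809 to 97728813 on chromosome 1, minus strand, held 611 anti-PanQk and 25 control reads (24.4-fold). The member at 12513771 to 12513773 on chromosome 10, minus strand, held 620 anti-PanQk and 27 control reads (23.0-fold). With the chromosome 3 and chromosome 10 sites above, at 22.5-fold and 21.8-fold, these make up the 5 highest ratios, all on the minus strand. All but the chromosome 6 member belong to the same set of 6 sites with like read numbers, described below. Whether they are independent places was not tested.

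At the low end, single members and whole sites have to be kept apart. The lowest member ratio was on chromosome 11, plus strand, at 101503166 to 101503169, with 15 anti-PanQk and 572 control reads (log2 -5.25). Its site also holds a member of 431 reads, so this was a side peak. The same held on chromosome 9, minus strand, at 56071535 to 56071579, with 14 anti-PanQk and 393 control reads, beside the member of 1257 reads. It held again on chromosome 16, minus strand, at 18407400 to 18407439, with 10 anti-PanQk and 256 control reads, beside a member of 455 reads. The lowest ratio of a whole site was on chromosome 10, minus strand, at 5862236 to 5862301, where the strongest member held 12 anti-PanQk reads and the strongest partner 203 control reads (16.9 times as many in the control). On chromosome 2, plus strand, 113128455 to 113128468 held 27 anti-PanQk and 356 control reads (13.2 times as many in the control). Over all 671 sites, taking the strongest peak of each list, 170 stood at 2-fold or more and 122 at 0.5 times or less.

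The marked centres of member and partner lay nearest to each other in the strongest shared peaks. Each listed peak carries a marked stretch of at most 4 nt, called its central stretch or centre here. It need not lie in the middle of the peak. The distance between the central stretches of member and strongest partner was 9 nt in the median (quartiles 2.5 and 21). In all, 391 members (35.2%) lay within 4 nt of the partner's centre, 600 (54.0%) within 10 nt and 1035 (93.1%) within 50 nt. By member reads, the median distance was 12 nt at 10 to 26 reads, 7.5 nt at 27 to 50, 6.25 nt at 51 to 100 and 1.5 nt over 100. Over 100 reads, 83.7% of members lay within 10 nt. The peaks also narrowed with reads, from a median of 29 nt for members and 44 nt for their partners at 10 to 26 member reads to 10.5 nt and 12.5 nt over 100, so short distances and narrow peaks came together. Since the rule asks for overlap, the widths of member and partner limit the distance between their centres. The short distances over 100 reads are thus set in part by the rule.

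**Figure D3:**
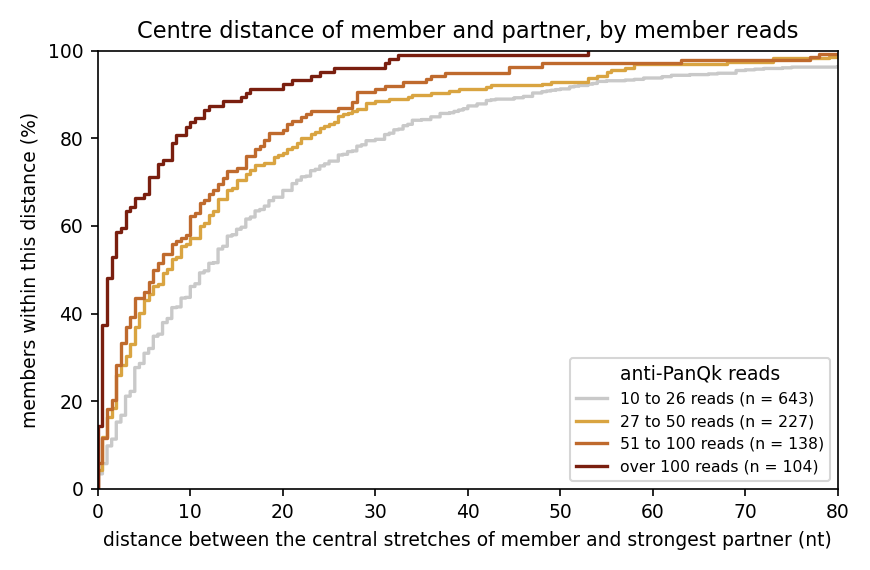
Cumulative share of members (vertical axis, %) whose strongest control partner has its central stretch within a given distance (horizontal axis, nt), by anti-PanQk reads of the member. The curve of members over 100 reads rises first, with a median of 1.5 nt, and that of members of 10 to 26 reads last, with a median of 12 nt.

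The upstream edge, on the side of the iCLIP stop, matched more often than the downstream edge. Upstream edges of member and strongest partner lay within 2 nt of each other in 303 members (27.2%, 24.6 to 30.0), and downstream edges in 198 (17.8%, 15.6 to 20.2). The gap between the edges was wider over 100 reads, with 65 members matching upstream (62.5%, 52.5 to 71.8) and 37 downstream (35.6%, 26.4 to 45.6). It was narrower at 10 to 26 reads, with 17.0% upstream and 13.5% downstream. Members over 100 reads include sites with like read numbers, described below, which are counted here as separate. In the 14 sites of 586 to 651 anti-PanQk reads, upstream edges lay within 2 nt in 14. Narrow peaks that must overlap also have less room for their edges to differ. The identical interval was called in both lists for 16 members. The member lay inside the partner in 423, the partner inside the member in 316, and 357 overlapped in part. The overlap was 1 nt in 22 members, the least that the rule takes.

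Members were narrower than strong anti-PanQk peaks with no control peak. Their median width was 21 nt (quartiles 8 and 53), against 67 nt (45 and 94) for the 1872 control-free peaks. The difference stood within the read classes of 10 to 26 (29 nt for members and 68 nt for control-free peaks) and 27 to 50 (21 nt and 81 nt). It did not stand at 51 to 100 reads (17.5 nt and 16 nt) or over 100 (10.5 nt and 8 nt, with 5 control-free peaks). The 538 strong anti-PanQk peaks that touched only a control peak below the minimum had a median width of 38 nt. It was 35 nt at 10 to 26 reads, 52 nt at 27 to 50 and 24 nt at 51 to 100. A width below that of control-free peaks was thus not particular to members. Width was not used by the rule and, with 1 library per list, it was not tested. Partners had a median width of 16 nt (quartiles 7 and 45.5).

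A peak listed under several gene IDs was taken here by its shortest locus. A locus of at most 200 nt was carried by 26.3% of members (23.8 to 29.0), against 13.9% of control-free strong peaks (12.4 to 15.6). Among control peaks the shares were 34.7% of partners and 15.6% of strong control peaks with no anti-PanQk peak. Within read classes the order of members and control-free peaks was not constant. At 10 to 26 reads, 122 of 643 members and 179 of 1673 control-free peaks (10.7%) lay in short loci. At 27 to 50 reads the shares were 27.8% of members and 17.3% of control-free peaks. At 51 to 100 reads it was 38.4% of members and 83.6% of control-free peaks. Members over 100 reads were in short loci in 52.9% of cases, as were 4 of the 5 control-free peaks of that size. Strong anti-PanQk peaks that touched only a control peak below the minimum had a share of 27.9%, close to that of the members. A locus runs between listed peaks and is not the annotated gene, so a long gene with few peaks can appear short.

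Ratios were spread most in the short loci. The 293 members in loci of at most 200 nt had a median log2 ratio of -0.21 with quartiles -1.17 and 0.87, and 15 stood at 8-fold or more and 23 at 1/8 or less. The 267 members in loci of over 1000 and up to 10000 nt had a median log2 ratio of 0 with quartiles -0.55 and 0.69, with 2 at 8-fold or more and 1 at 1/8 or less. Members of short loci held more reads on both sides, with medians of 35 anti-PanQk and 39 control reads. The minimum of 10 reads therefore narrows their ratios less. Their centres lay nearer together, 4.5 nt apart in the median, against 13 nt in the loci of over 1000 and up to 10000 nt. Of the 14 sites of 586 to 651 anti-PanQk reads described below, 13 were listed under a short locus. Those 14 had a median ratio of 18.5-fold, so the upper end of the spread rests in part on sites of like read numbers. The 480 members in loci over 10000 nt had a median log2 ratio of -0.09.

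For position, a peak listed under several gene IDs was taken by its longest locus, so some peaks of short loci enter here too. In loci of 1000 nt or more the members gathered at the downstream end. Of 758 such members, 456 (60.2%) lay in the last 10% of the locus, as did 1010 of 1472 control-free strong anti-PanQk peaks (68.6%). Of 567 partners, 288 (50.8%) lay there, against 1062 of 3451 strong control peaks without an anti-PanQk peak (30.8%). In the first 10% of the locus lay 11.9% of members, 7.27% of control-free peaks, 18.5% of partners and 29.2% of the other strong control peaks. At 10 to 26 control reads, where most control peaks lie, 55.3% of partners and 30.8% of the other strong control peaks lay in the last 10%. The partners' share there was 47.0% of 83 at 27 to 50 reads, 32.7% of 52 at 51 to 100 and 31.0% of 29 over 100. In the first 10% lay 42.3% of partners at 51 to 100 reads and 44.8% over 100. With all read classes together, the shared places stood in position between the peaks found in 1 list alone. The partners of 51 or more reads did not, with more of them in the first 10%. No strong control peak without an anti-PanQk peak had 51 or more reads in such a locus. These partners could thus be set only beside control peaks of fewer reads. Locus ends depend on which peaks were listed, and peaks of 1 locus are not independent.

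Many of the strongest sites came in sets of like read numbers. Of 125 sites with 100 or more reads in a list, 63 (50.4%, 41.3 to 59.5) had at least 1 site on another chromosome within 10% in both anti-PanQk and control reads, and 32 had 3 or more. This comparison was chosen after the values were seen. The shares and distances given above for peaks over 100 reads count such sites separately. The widest set joined 17 sites on 11 chromosomes, with 101 to 133 anti-PanQk reads and 51 to 65 control reads. By these ranges, its sites do not all lie within 10% of each other. Of the 17 sites, 8 were listed under a locus of at most 200 nt. A set of 8 sites on chromosomes 1, 11 and X held 431 to 509 anti-PanQk reads and 541 to 589 control reads, all listed under a locus of at most 49 nt and 2 of them also under a locus of 18198 nt. Sets lean either way, with 6 sites on 5 chromosomes at 602 to 631 anti-PanQk and 25 to 29 control reads. Another 6 sites, all on minus strands of chromosomes 1, 12 and 18, held 38 to 52 anti-PanQk and 434 to 487 control reads.

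**Figure D4:**
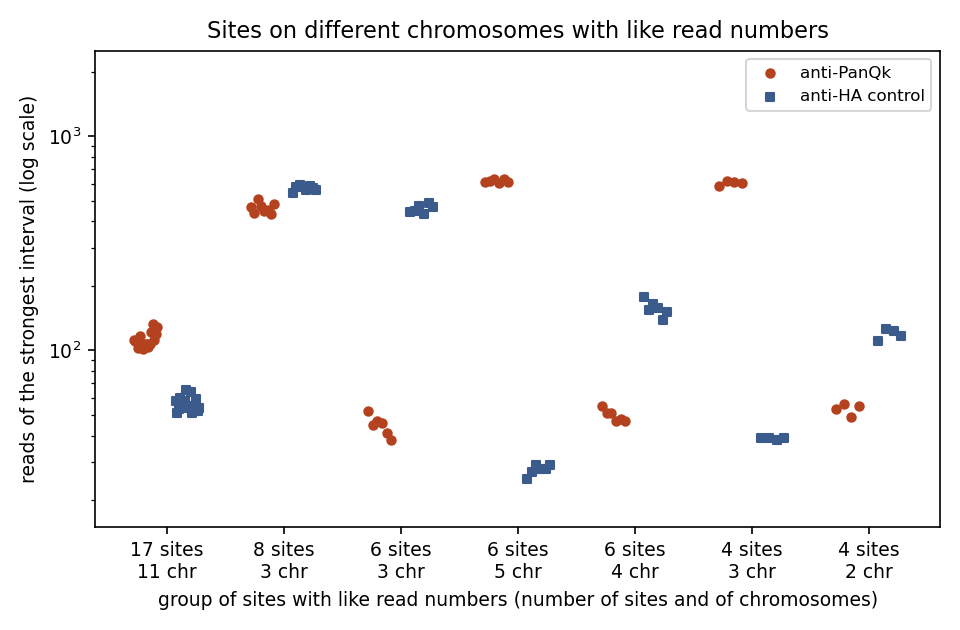
Reads of the strongest anti-PanQk member (red circles, left) and the strongest control partner (blue squares, right) for the sites of 7 sets with like read numbers, on a log scale. Each tick gives the number of sites and of chromosomes in a set. The sets of 6 sites on 5 chromosomes and of 4 sites on 3 chromosomes are high in the anti-PanQk list, and the set of 6 sites on 3 chromosomes is high in the control list.

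Taken by read number alone, 14 sites on 9 chromosomes held 586 to 651 anti-PanQk reads, with a median of 615.5, and 12 to 89 control reads, with a median of 33.5. Their ratios ran between 7.31-fold and 50.8-fold with a median of 18.5-fold. Of these sites, 13 were listed under a short locus, 3 of them also under a locus over 1000 nt, and 11 lay on minus strands. The anti-PanQk members had a median width of 5 nt and the control partners 19.5 nt, and in 14 of 14 the upstream edges lay within 2 nt, with 10 identical. A further 11 sites on chromosomes 1, 11 and X, all listed under a short locus and 3 of them also under a locus of 18198 nt, held 431 to 821 anti-PanQk reads, with a median of 471, and 526 to 589 control reads, with a median of 562. Whether such sites are copies of 1 RNA whose reads were counted at several places was not tested, since no genome of the files' build was at hand. Leaving out the 74 gene IDs of sites with a like site elsewhere left 27.6% of strong anti-PanQk peaks as members.

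A few loci held many members. Of the 480 gene IDs, 306 had 1 member and 18 had 10 or more, and those 18 held 318 members (28.6%). The most, 37 members in 9 sites, lay under ENSMUSG00000018593 on chromosome 11, minus strand, whose listed peaks run between 55208026 and 55233327. All 37 fell in a stretch of 1016 nt, 55208029 to 55209044, at the downstream end. They held 10 to 355 anti-PanQk reads with a median of 24, and their partners 10 to 63 control reads with a median of 24. The median log2 ratio was 0.53, with 24 members above and 12 below their partner. The strongest, at 55208074 to 55208101, held 355 anti-PanQk and 63 control reads, and a member at 55208954 to 55208963 held 153 anti-PanQk and 10 control reads.

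The X chromosome locus at 53985016 to 54046508, plus strand (ENSMUSG00000023092), held 32 members in 7 sites, all in its last 10%. They held 10 to 633 anti-PanQk reads with a median of 26, and their partners 11 to 80 control reads with a median of 27. The strongest stood close together. The member at 54045765 to 54045781 held 633 anti-PanQk and 80 control reads, and its neighbour at 54045782 to 54045794 held 508 anti-PanQk and likewise 80 control reads, in a partner of its own. The member at 54045677 to 54045699 held 471 anti-PanQk and 73 control reads, and that at 54045956 to 54045986 held 343 anti-PanQk and 39 control reads. In both loci the strong members held several times the reads of their partners, while the median member and the median partner were close.

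**Figure D5:**
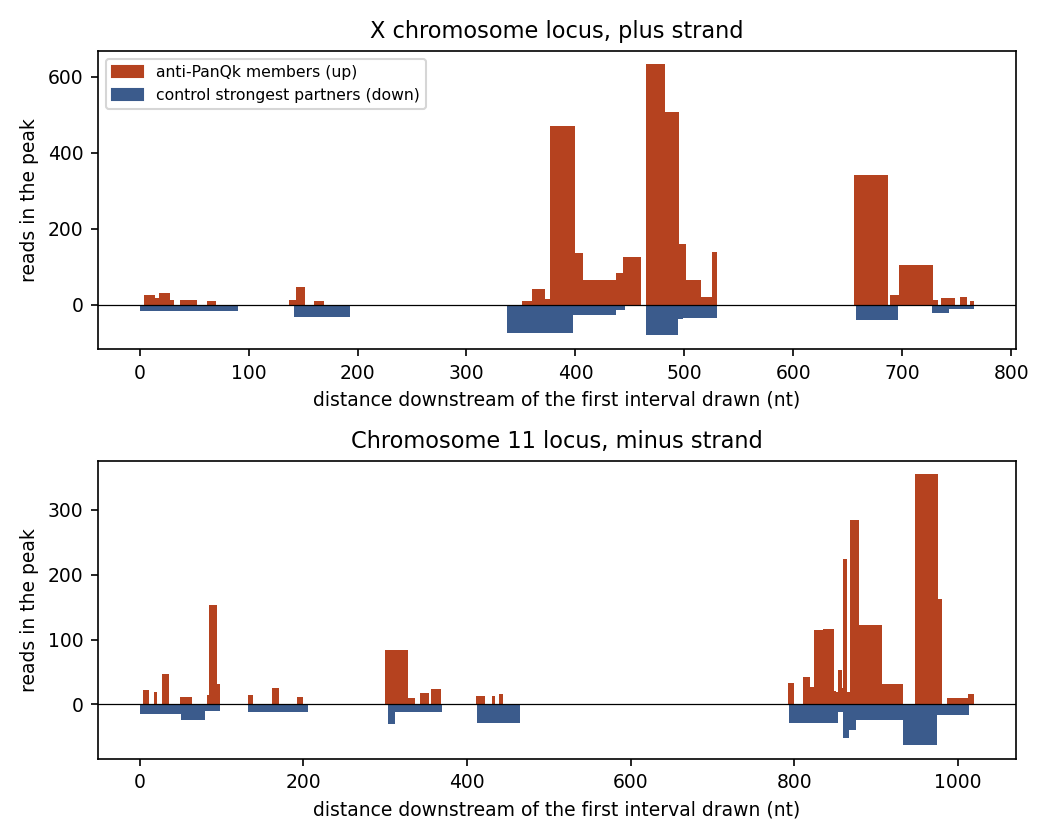
Members (red, upward bars) and their strongest control partners (blue, downward bars) at the downstream ends of the X chromosome locus and the chromosome 11 locus, with reads in the peak on the vertical axis and distance downstream of the first interval drawn (nt) on the horizontal axis. Bar width is peak width, and X chromosome members farther upstream are not drawn. The tallest anti-PanQk bars, 633 reads on the X chromosome and 355 on chromosome 11, stand over control bars of 80 and 63 reads.

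Of the 18 gene IDs with 10 or more members, 7 had a median log2 ratio above 0, 10 below and 1 at 0. Members that share a partner are each set against all of its reads. These medians therefore rest in part on how finely each list was cut into peaks. A chromosome 11 locus at 87236368 to 87285058, plus strand, held 30 members in 20 sites spread over nearly its whole length. They held 10 to 119 anti-PanQk reads with a median of 35.5, and their partners 12 to 354 control reads with a median of 42, for a median log2 ratio of -0.68. A chromosome 11 locus at 120439463 to 120442852, minus strand, packed 30 members into 2 sites, with a median of 18 anti-PanQk and 25 control reads and a median log2 ratio of -0.54. Its 30 members shared only 4 partners, so the sign of this median shows no lean to the control. The strongest member held 79 anti-PanQk reads over 10 control reads, while 10 members stood above their partner and 20 below. The X chromosome locus at 93291456 to 93363888, plus strand, held 19 members in 5 sites, as many members as 2 other gene IDs. These members shared 5 partners, with medians of 19 anti-PanQk and 23 control reads. It had 134 anti-PanQk peaks in all and 19 control peaks. Of 98 gene IDs with 3 or more members, 13 had all members above their partner, 19 had all below and the others were mixed.

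Shared places and control-free anti-PanQk peaks could stand under the same gene ID. Of the 480 gene IDs with a member, 289 (60.2%) also carried an anti-PanQk peak that touched no control peak, against 6603 of all 7104 gene IDs with a nuclear anti-PanQk peak (92.9%). A member itself touches a control peak, so the rule bears on this share. In 176 of the 289 such a peak was strong. Chromosome 11 held 217 members (19.5%) in 87 sites, against 9.83% of control-free strong anti-PanQk peaks, and the X chromosome held 87 members (7.82%) against 4.33%. Chromosome 17 held 16 members (1.44%), against 4.38% of control-free peaks. The rich loci named above lie on chromosomes 11 and X, and members of 1 locus are not independent, so no test is given. By strand, 539 members were on the plus and 573 on the minus strand.

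The minimum of 10 reads passes through a continuous range. Of 381 nuclear anti-PanQk intervals of 10 reads, 70 were members, and of 508 intervals of 9 reads, 76 touched a strong control peak and stayed outside. Just inside stood the X chromosome interval at 54045651 to 54045659, with 10 anti-PanQk and 73 control reads, and a chromosome 8 interval at 126084824 to 126084881 with 10 anti-PanQk and 51 control reads. Just outside stood a chromosome 11 interval at 87240250 to 87240273, with 9 anti-PanQk and 354 control reads, and a chromosome 8 interval at 87635790 to 87635825 with 9 anti-PanQk and 129 control reads. On the control side, 61 of 255 intervals of 10 reads were partners, and 44 of 213 intervals of 9 reads touched a strong anti-PanQk peak.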

How the data were processed

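Peaks were called by the authors with CLIPper on mm9, 1 library per list, per the file headers. The submitters' processing notes list Bowtie2 and TopHat with the same build, with their versions not given in the sources used here. Read count means the number that ends a peak's name as deposited, a reading that no file header states and on which all read values rest. The deposited p-values were at most 1.62e-08 for members and 1.35e-08 for partners. Intervals were counted once and overlapped on the same strand in Python 3.11.15 with scipy 1.17.1, numpy 2.4.6 and pandas 2.3.3. Each member was set against the partner with the most reads. Shares have Clopper-Pearson intervals, medians have distribution-free binomial intervals, and single counts have exact Poisson intervals. Read numbers were not scaled between lists. On simulated intervals the overlap code recovered 1000 of 1000 planted members with 0 false calls. Positions are 1-based.

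Members and rules were chosen with earlier results of these data known. The text names the 10 sites with the most anti-PanQk reads, the 5 highest and lowest ratios, the 5 gene IDs with the most members (of 3 tied at 19, the one with the strongest member) and intervals beside the minimum. The lowest whole sites and the sets of like read numbers were chosen after their values were seen. The reference table pairs 0 Ensembl IDs with symbols and no mm9 genome was at hand, so gene lists, marker lists, gene classes and sequence motifs were not analysed here.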

Additional observations from a re-analysis of the deposited data

How the results depend on the processing

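The alternatives were a minimum of 20 reads, more than 26 control reads, at least 50% of the shorter interval shared, a gap of up to 100 nt, the mitochondrial chromosome kept, entries counted as listed, connected sites summed and reads scaled to list totals. Removing the 18 gene IDs with 10 or more members, or the 74 gene IDs of sites with like read numbers elsewhere, was added after seeing the data. With 20 reads in both lists, 420 members, 369 partners and 207 gene IDs remained, the paired share of control peaks was 22.4%, the median log2 ratio was 0.060, 87 members stood at 2-fold or more and 92 at 0.5 times or less, and the median width was 13 nt. With more than 26 control reads there were 475 members, 366 partners and 200 gene IDs, paired shares of 13.5% of anti-PanQk and 71.3% of control peaks, a median log2 ratio of -0.71, 67 members at 2-fold or more and a median width of 12 nt. An overlap of 50% gave paired shares of 29.6% and 15.6%. A distance of 100 nt gave 43.9% and 21.2%, a median log2 ratio of -0.30 and 439 members at 0.5 times or less. Keeping the mitochondrial chromosome gave a control share of 17.7%. Summed sites had a median log2 ratio of 0.087 with 139 at 0.5 times or less, and scaled reads -0.42 with 146 at 2-fold or more, so the sign of the median ratio rests on these choices. Without the rich gene IDs the shares were 26.3% and 13.9%, with 153 members at 0.5 times or less and a width of 34 nt. Without the gene IDs of like sites they were 27.6% and 13.3%, with 153 and 29 nt. In the other 40 cases counts stayed within 1.5 times of the main one, the farthest being 1545 members with a gap of 100 nt, 789 members without the rich gene IDs and 333 members at 0.5 times or less with scaled reads, and shares, medians and widths stayed within the main 95% interval. Counts were compared without regard to their totals, so a like count can be an unlike share. With more than 26 control reads, 209 of 475 members stood at 0.5 times or less, against 236 of 1112 in the main setting. With sites summed, 183 of 671 sites stood at 2-fold or more and 139 at 0.5 times or less. Apart from what the alternatives change by construction, the causes were not tested.

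No paired analysis was possible because neither list has a second library. The alternatives for sequence motifs and gene classes were not run. The limits are the missing replicates and the unknown depth, so ratios of reads compare 2 lists and not 2 conditions.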
